A study of Mus musculus with 8 samples.

Results

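The B cell, plasma cell and myeloid genes described here are Cd79a, Cd79b, Ms4a1, Igj, Csf1r, Tyrobp, Fcer1g, Itgax, Lyz2 and Laptm5. They were chosen by name, with earlier results of these data known, as genes of B, plasma and myeloid cells. Some of them are also genes of other leukocytes, as described below. They are 10 of the 23366 gene symbols in the count tables. All 10 passed the filter on low counts and are among the 20427 genes tested. RNA came from CD326+ cells sorted from the intestinal epithelium of 6-week-old male littermates, 50000 cells per library, with CD44plus enriched for crypt and CD44minus for villus cells. The 4 groups, each of 2 libraries from 2 animals, were Sox4cKO CD44plus, control CD44plus, Sox4cKO CD44minus and control CD44minus. Sox4cKO animals were Sox4fl/fl:vilCre+/-, in which the villin promoter drives Cre in the intestinal epithelium, and controls were Sox4fl/fl, so both carried the floxed alleles and none carried Cre without them. Values given in pairs are replicate 1 and then replicate 2.

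CD326, also known as EpCAM, is a surface protein of epithelial cells, and most leukocytes lack it. The intestinal epithelium is in close contact with leukocytes, both those that lie between its cells and those of the underlying lamina propria. Cd79a and Cd79b encode the signalling pair of the B cell receptor and Ms4a1 encodes the B cell surface protein CD20. Igj, now named Jchain, encodes the joining chain that plasma cells add to polymeric IgA and IgM. Csf1r encodes the receptor for the growth factor that macrophages depend on, and Lyz2 encodes the lysozyme of macrophages and neutrophils. Tyrobp and Fcer1g encode small signalling adaptors with an immunoreceptor tyrosine-based activation motif (ITAM), which pair with receptors of myeloid cells, natural killer cells and, for Fcer1g, mast cells. Itgax encodes the integrin CD11c, found on dendritic cells and on some lymphocytes of the gut, and Laptm5 encodes a lysosomal membrane protein of most leukocytes.

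The sequences just before the annotated start are shown for 4 genes that differed between the gates in Sox4cKO, because each passed the test there and has such a window of at least 200 bases. They are from RefSeq on GRCm38.p6, written 5′ to 3′ on the strand of the gene, and capitals mark matches to AGGAAG or its reverse complement CTTCCT. This is the core of sites that ETS-family factors, PU.1 of myeloid and B cells among them, can bind.
Fcer1g, chr1:171234366-171234599, minus strand: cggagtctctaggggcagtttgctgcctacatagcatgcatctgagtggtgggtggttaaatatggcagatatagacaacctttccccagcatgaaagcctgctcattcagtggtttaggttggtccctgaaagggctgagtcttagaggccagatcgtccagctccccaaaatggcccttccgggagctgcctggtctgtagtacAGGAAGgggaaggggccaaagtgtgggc
Igj, chr5:88527898-88528147, minus strand: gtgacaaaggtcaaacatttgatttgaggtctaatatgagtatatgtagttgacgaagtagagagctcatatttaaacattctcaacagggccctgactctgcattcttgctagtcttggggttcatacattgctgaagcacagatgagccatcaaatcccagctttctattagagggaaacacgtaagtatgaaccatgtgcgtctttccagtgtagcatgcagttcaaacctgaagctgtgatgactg
Itgax, chr7:128129300-128129546, plus strand: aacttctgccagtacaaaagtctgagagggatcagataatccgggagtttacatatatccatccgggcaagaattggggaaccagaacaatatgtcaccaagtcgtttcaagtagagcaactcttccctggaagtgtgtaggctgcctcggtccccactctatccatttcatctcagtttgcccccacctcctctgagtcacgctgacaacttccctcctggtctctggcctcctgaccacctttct
Lyz2, chr10:117282322-117282522, minus strand: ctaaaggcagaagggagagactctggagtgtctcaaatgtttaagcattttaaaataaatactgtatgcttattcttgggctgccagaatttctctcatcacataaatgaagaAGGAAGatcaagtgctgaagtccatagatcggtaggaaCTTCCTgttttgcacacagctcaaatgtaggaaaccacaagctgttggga
Lyz2 holds 2 matches and Fcer1g 1, while the windows of Igj and Itgax hold none of these letters. The motif was chosen after the sequences were seen, and it occurs in 29.5% of the 32851 RefSeq windows of 250 bases, so a match here is a description and not a site.

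Gene counts per library ranged from 886194 to 13238050, and 64.6% to 96.6% of the uniquely placed reads were counted to no gene. Sox4 had 123 and 271 reads in Sox4cKO CD44plus against 1438 and 658 in control CD44plus, and 4 and 1 reads in Sox4cKO CD44minus against 10 and 21 in control CD44minus. Reads on genes that are mostly silent outside sensory tissue, although some are known from gut endocrine cells, gave a measure of stray reads: 1432 olfactory and vomeronasal receptor genes took 353 and 67.2 CPM of gene counts in Sox4cKO CD44plus and 287 and 266 CPM in control CD44plus. In CD44minus they took 4065 and 183 CPM in Sox4cKO and 3576 and 1345 CPM in control. CPM are the reads of a gene divided by the library's gene counts and put on a common base. All except those of the receptor genes above are also scaled by trimmed mean of M values (TMM).

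The summed level of these genes was higher in all CD44plus libraries than in any CD44minus library. Summed over the 10 genes, the level was 447.5 and 1144 CPM in Sox4cKO CD44plus and 272 and 486 CPM in control CD44plus. In CD44minus it was 88.2 and 61.3 CPM in Sox4cKO and 72.1 and 58.2 CPM in control. Itgax and Laptm5 made up 57.8% and 66.2% of the sum in Sox4cKO CD44plus and 66.2% and 56.3% in control CD44plus. In CD44plus every member had more reads than stray reads on its exon length would give, by the lower 95% Poisson limit, in all 4 libraries. In CD44minus that held for 6 and 7 of the 10 in Sox4cKO and for 4 and 5 in control. The share over all genes was not counted, so this sets the 10 genes apart from stray reads only. Among the marker lists read below, 15 of 15 genes of all leukocytes and 7 of 7 epithelial genes were above that level in all 4 CD44plus libraries. So were 16 of 18 further B cell genes and 6 of 12 granulocyte genes. In bulk RNA, fewer cells of a type and less RNA per cell cannot be told apart.

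**Figure D1:**
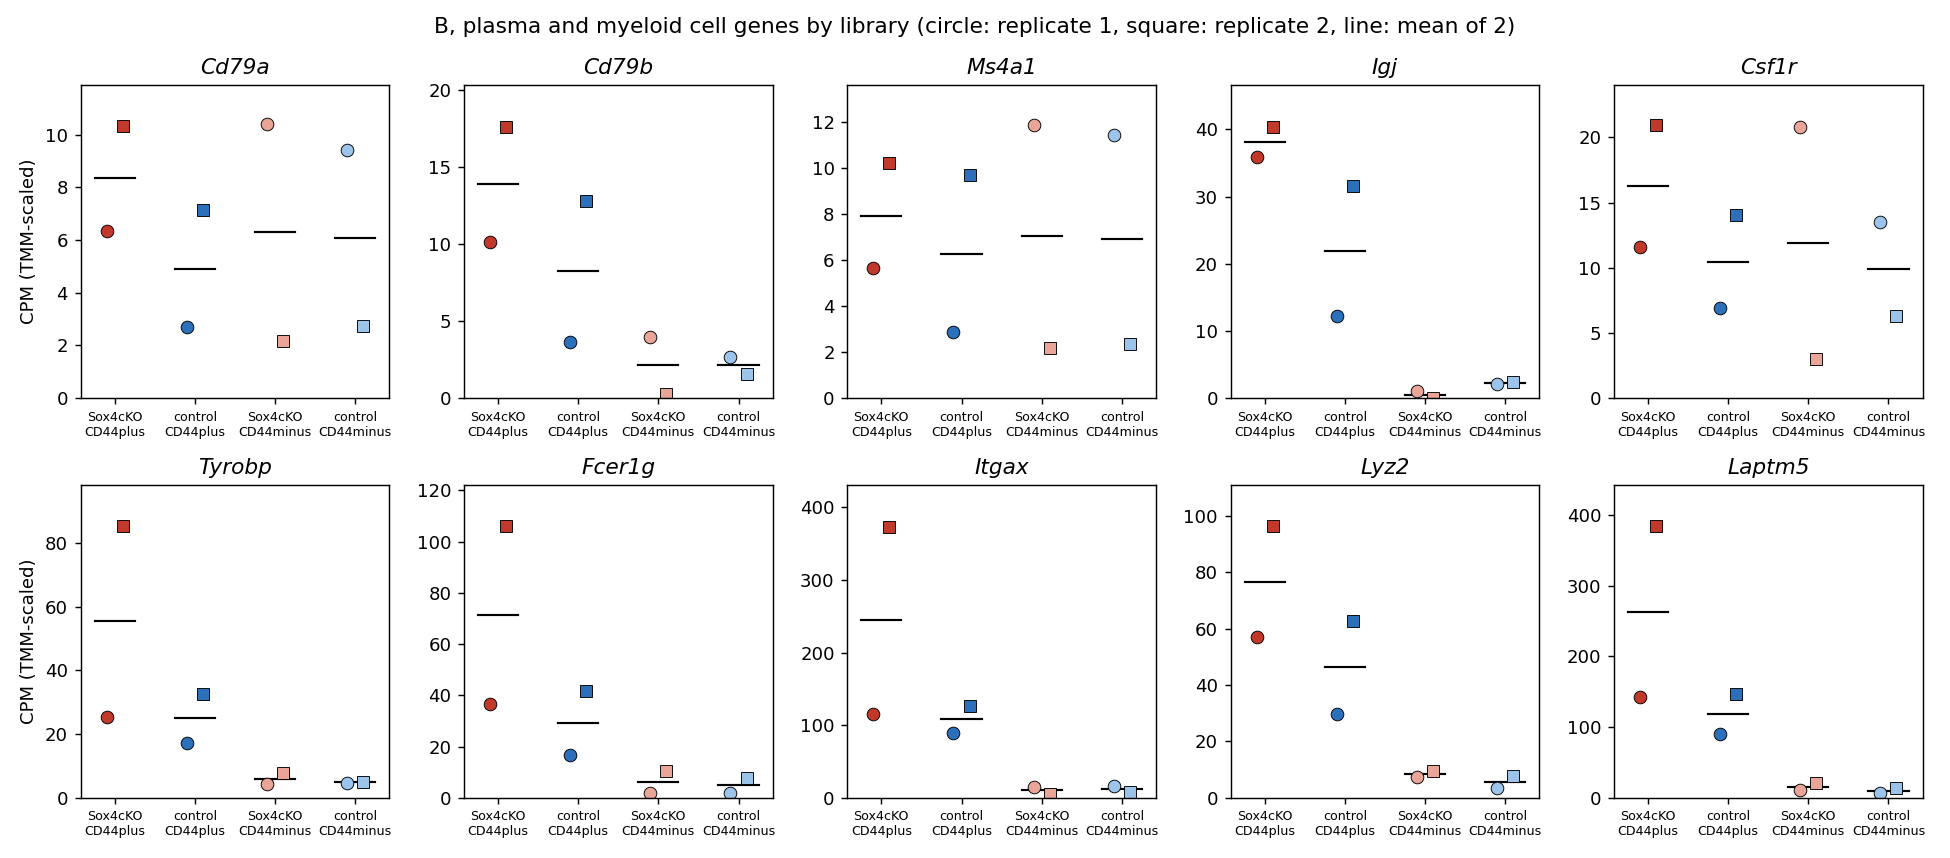
TMM-scaled CPM of each gene (y axis, linear, own scale per panel) in the 4 groups (x axis); each point is a library and each line the mean of 2. Tyrobp, Fcer1g, Itgax, Igj, Lyz2 and Laptm5 are higher in all CD44plus libraries than in any CD44minus library, while Cd79a, Ms4a1 and Csf1r overlap between the gates.

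Per kilobase of exon, the order of mean levels in Sox4cKO CD44plus was Tyrobp 83.1, Fcer1g 81.6, Laptm5 69.4, Lyz2 58.2, Itgax 51.0, Igj 15.1, Cd79b 9.70, Cd79a 5.73, Csf1r 2.82 and Ms4a1 1.28 CPM per kilobase. In control CD44plus the mean levels per kilobase were 37.5 for Tyrobp, 35.2 for Lyz2, 33.3 for Fcer1g, 31.4 for Laptm5 and 22.5 for Itgax. There they were 8.69 for Igj, 5.75 for Cd79b, 3.36 for Cd79a, 1.81 for Csf1r and 1.01 for Ms4a1. Within each of the 4 CD44plus libraries Itgax was below Tyrobp, Fcer1g and Laptm5 on this scale, closest to Fcer1g in control replicate 1, at 18.6 against 19.0. Tyrobp was above Laptm5 in all 4, by as little as 38.2 against 37.7 in Sox4cKO replicate 1. The places of Fcer1g and Lyz2 among the 5 changed between libraries. The B cell genes and Csf1r were the lowest in both genotypes.

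The B cell receptor genes and Ms4a1 were read at low levels. Cd79a was at 6.36 and 10.3 CPM in Sox4cKO CD44plus, 2.68 and 7.12 CPM in control CD44plus, 10.4 and 2.18 CPM in Sox4cKO CD44minus and 9.43 and 2.75 CPM in control CD44minus. The CD44minus values of replicate 1 rest on 21 and 14 reads in Sox4cKO and control, and the gates overlap in both genotypes. Cd79b, its partner, was at 10.1 and 17.6 CPM in Sox4cKO CD44plus, 3.66 and 12.8 CPM in control CD44plus, 3.96 and 0.272 CPM in Sox4cKO CD44minus and 2.69 and 1.57 CPM in control CD44minus. Both CD44plus libraries were above both CD44minus libraries in each genotype, and the genotypes overlap within each gate. Ms4a1 was at 5.64 and 10.2 CPM in Sox4cKO CD44plus, 2.86 and 9.68 CPM in control CD44plus, 11.9 and 2.18 CPM in Sox4cKO CD44minus and 11.5 and 2.36 CPM in control CD44minus. Its CD44minus reads, 24 and 8 in Sox4cKO and 17 and 6 in control, were 1.26 and 1.57 times the predicted stray reads in Sox4cKO and 1.34 and 0.479 times in control, so they are at about the stray level.

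Igj, the plasma cell gene, had the widest difference of the 10 between the gates in Sox4cKO. In Sox4cKO CD44plus it had 248 and 426 reads, or 35.9 and 40.4 CPM, and in control CD44plus 136 and 173 reads, or 12.2 and 31.6 CPM. In Sox4cKO CD44minus it had 2 and 0 reads, or 0.990 and 0 CPM, and in control CD44minus 3 and 6 reads, or 2.02 and 2.36 CPM. Both Sox4cKO libraries lie above both controls in CD44plus and below both in CD44minus. In CD44minus its reads were 0.257 and 0 times the predicted stray reads in Sox4cKO and 0.582 and 1.18 times in control. A count of 0 allows up to 3 reads, so levels between the genotypes in CD44minus were not resolved at this depth. Pooled over replicates, the ratio of CD44plus to CD44minus level was 109.8 in Sox4cKO (exact 95% interval 30.3 to 908, counting error only) and 8.30 in control (4.32 to 18.3). These ratios rest on 2 and 9 reads in CD44minus. Their intervals leave out differences between animals, so they are not a test between the genotypes. The edgeR test of that difference, given below, did not pass.

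The myeloid receptor Csf1r was at 11.6 and 20.9 CPM in Sox4cKO CD44plus, 6.88 and 14.1 CPM in control CD44plus, 20.8 and 2.997 CPM in Sox4cKO CD44minus and 13.5 and 6.29 CPM in control CD44minus. The groups overlap in all comparisons. Its exons overlap those of Hmgxb3 on the opposite strand by 873 bases, and how HTSeq treated strand is not given in the sources used here, so its counts are uncertain. Lyz2 was at 57.0 and 96.3 CPM in Sox4cKO CD44plus, 29.8 and 62.8 CPM in control CD44plus, 7.43 and 9.54 CPM in Sox4cKO CD44minus and 3.37 and 7.86 CPM in control CD44minus. The gates do not overlap. Lyz1, the near-identical lysozyme of Paneth cells, was at 2144 and 1660 CPM in Sox4cKO CD44plus, 1724 and 1194 CPM in control CD44plus, 2641 and 15100 CPM in Sox4cKO CD44minus and 4362 and 8748 CPM in control CD44minus. Lyz2 was higher in CD44plus, the gate in which all 4 libraries had less Lyz1 than any CD44minus library, and any reads split between the copies make the counts of both uncertain.

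The signalling adaptors, CD11c and Laptm5 shared a further feature. Tyrobp was at 25.5 and 85.4 CPM in Sox4cKO CD44plus, 17.3 and 32.7 CPM in control CD44plus, 4.46 and 7.63 CPM in Sox4cKO CD44minus and 4.72 and 5.11 CPM in control CD44minus. Fcer1g was at 36.7 and 105.9 CPM in Sox4cKO CD44plus, 16.6 and 41.6 CPM in control CD44plus, 1.98 and 10.4 CPM in Sox4cKO CD44minus and 2.02 and 7.86 CPM in control CD44minus. In both genes 1 library, Sox4cKO CD44plus replicate 2, stands far above the others. Itgax was at 116 and 374 CPM in Sox4cKO CD44plus, 89.2 and 127 CPM in control CD44plus, 15.3 and 5.45 CPM in Sox4cKO CD44minus and 16.8 and 8.65 CPM in control CD44minus. Laptm5 was at 143 and 383 CPM in Sox4cKO CD44plus, 90.8 and 147 CPM in control CD44plus, 10.9 and 20.7 CPM in Sox4cKO CD44minus and 6.06 and 13.4 CPM in control CD44minus. In these 4 genes Sox4cKO CD44plus replicate 2 was 2.54 to 2.95 times the next highest library, which was the case at more than 2 times for 2.08% of all genes tested. All 10 genes were highest in that library and lowest in control replicate 1 among the CD44plus libraries, which 29.5% and 19.6% of all genes were.

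**Figure D2:**
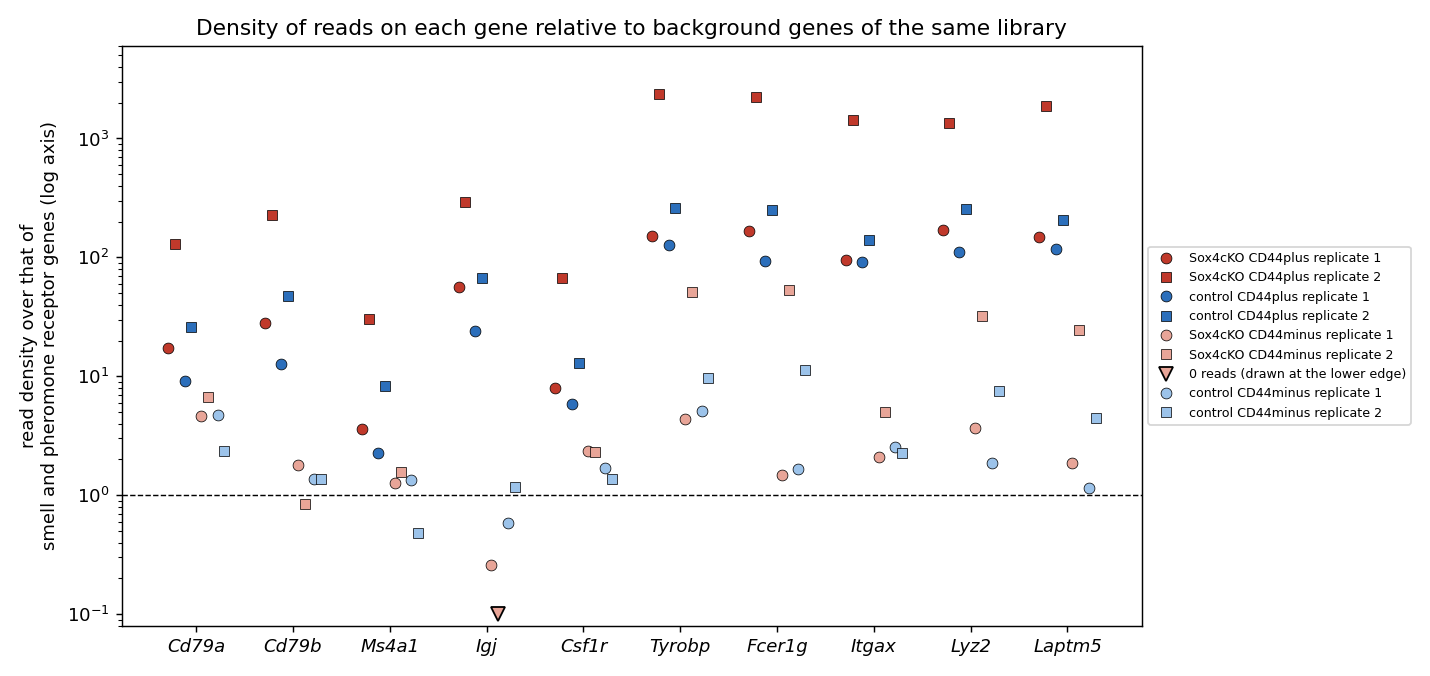
Reads per exon length of each gene relative to those per coding length of 1432 olfactory and vomeronasal receptor genes of the same library (log y axis; dashed line, equal density; colour, group; shape, replicate). All CD44plus points lie above 1, and the CD44minus points of Igj, Cd79b and Ms4a1 lie around or below 1.

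Between genotypes in CD44plus, none of the 10 genes passed edgeR's quasi-likelihood test (adjusted p 0.05), where 0% of the 20427 genes were called higher. At an unadjusted p under 0.05, 0 of the 10 and 0.181% of all genes were higher, and DESeq2 and limma-voom called 0 of the 10. The estimates were positive for 10 of 10 genes (49.9% of all genes), with a median log2 fold change of 0.79 against -0.00052 over all genes. The adaptors had 1.30 ± 0.72 (Fcer1g) and 1.15 ± 0.62 (Tyrobp), the value after ± being the standard error (SE) of the fit. Itgax had 1.18 ± 0.74 and Laptm5 1.15 ± 0.73, against 0.81 ± 0.69 for Igj, 0.73 ± 0.58 for Lyz2 and 0.64 ± 0.82 for Csf1r. The B cell genes had 0.78 ± 1.03 (Cd79a), 0.76 ± 1.04 (Cd79b) and 0.35 ± 1.04 (Ms4a1), and every adjusted p was 1. Igj was the 1 gene whose Sox4cKO libraries were both above both controls, which 14.2% of all genes were. Without Sox4cKO CD44plus replicate 2 the median was 0.28, with Tyrobp at 0.029 and Itgax at 0.11. Without control CD44plus replicate 1 it was also 0.28, and without control CD44plus replicate 2 it was 1.58.

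Between genotypes in CD44minus, none of the 10 genes passed the test, where again 0% of all genes were called in either direction. The estimates were positive for 7 (57.5% of all genes) and negative for 3 (42.5%), with a median of 0.15 against 0.19 over all genes. Unadjusted p was under 0.05 for 0 of the 10 genes, against 0.534% of all genes higher and 0.0343% lower, and DESeq2 and limma-voom called 0. Igj had the largest difference in size, -2.48 ± 1.18 (adjusted p 1.00), and its libraries were both below both controls, as for 5.94% of all genes. Without Sox4cKO CD44minus replicate 1, Igj had a log2 fold change of -6.76. That fit sets 0 reads in the remaining library against 9 in the controls and so depends on the prior count. The test of whether the genotype difference itself differed between gates called 0 of the 10 and 0% of all genes, with Igj at 3.28 ± 1.37 (unadjusted p 0.0274, adjusted p 1.00). Igj was the 1 member with an unadjusted p under 0.05 there, which 0.093% of all genes had in that direction.

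**Figure D3:**
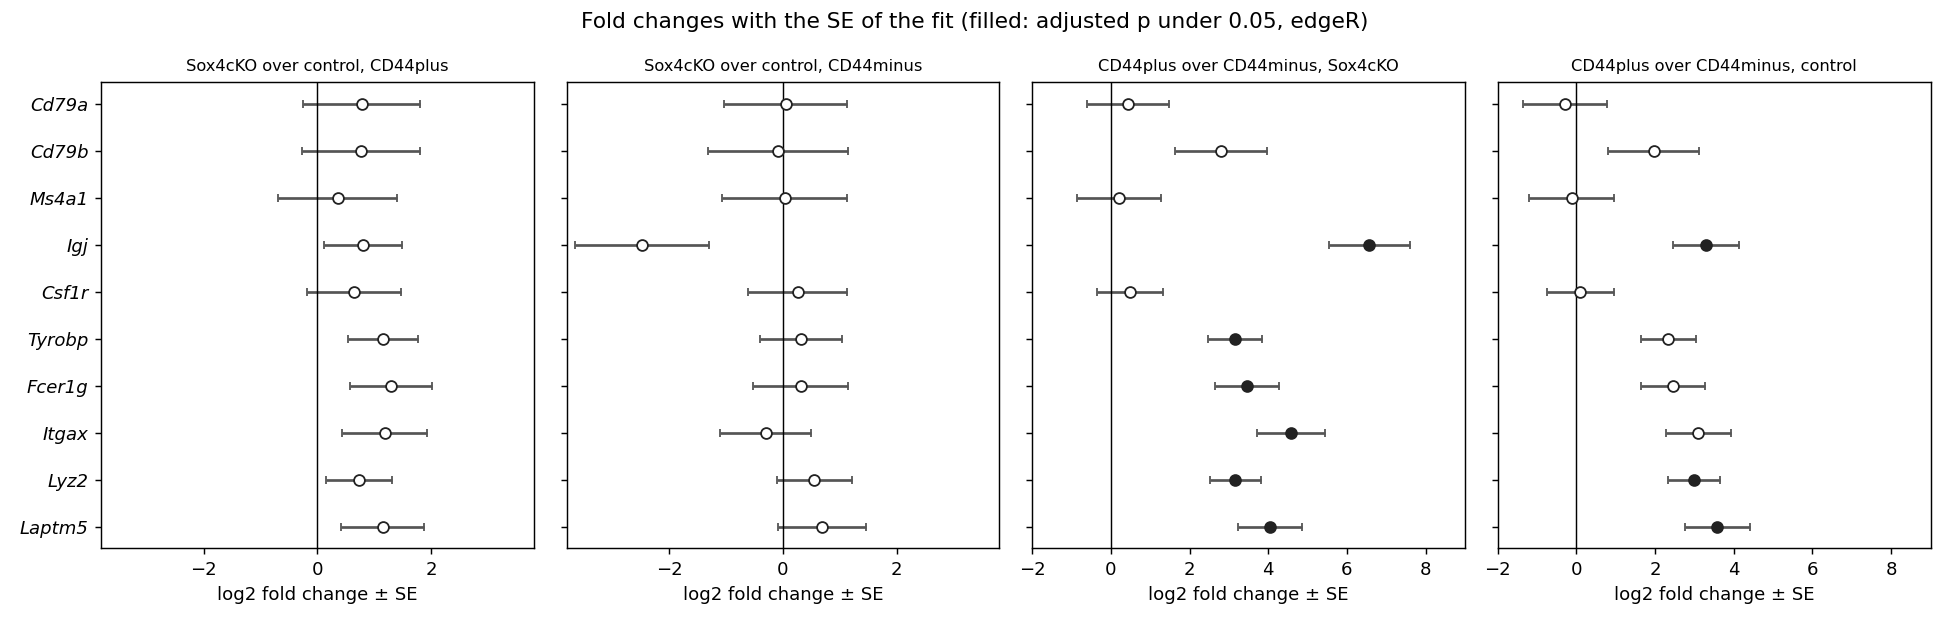
Log2 fold change (x axis) with the SE of the edgeR fit for each gene in 4 comparisons; filled points have an adjusted p under 0.05. Filled points appear only in the panels that set CD44plus against CD44minus, for 6 genes in Sox4cKO and 3 in control.

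Between the gates, 6 of the 10 genes were higher in CD44plus of Sox4cKO, where 1.66% of all genes were, and 3 were in control, where 2.01% were. In Sox4cKO, Igj rose by a log2 fold change of 6.57 ± 1.03 (adjusted p 0.0117), Itgax by 4.58 ± 0.87 (0.0147) and Laptm5 by 4.04 ± 0.82 (0.0179). Fcer1g rose by 3.46 ± 0.81 (adjusted p 0.0302), Tyrobp by 3.17 ± 0.69 (0.0224) and Lyz2 by 3.16 ± 0.64 (0.0179). The 4 others were at 2.81 ± 1.17 (Cd79b), 0.48 ± 0.84 (Csf1r), 0.44 ± 1.05 (Cd79a) and 0.21 ± 1.06 (Ms4a1), none past the threshold. With the animal as a replicate block, since both gates came from 1 animal, 7 of the 10 were higher in Sox4cKO (3.95% of all genes), Cd79b included (3.11 ± 0.93, adjusted p 0.0204). The median of the 10 was 3.16 against -0.48 over all genes, and both CD44plus libraries were above both CD44minus libraries for 7 of the 10 (21.1% of all genes). Without Sox4cKO CD44plus replicate 2 the median of the 10 was 2.435. There Igj kept its call and the others of the 6 lost theirs, as calls fell over all genes. A fit of the 4 Sox4cKO libraries alone called 0 of the 10, where 0% of all genes were higher. In that fit the adjusted p ran from 0.0563 to 0.0740 for the same 6.

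In control, Laptm5 rose in CD44plus by a log2 fold change of 3.58 ± 0.82 (adjusted p 0.0290), Igj by 3.29 ± 0.84 (0.0462) and Lyz2 by 2.99 ± 0.66 (0.0267). Itgax was at 3.10 ± 0.82 (adjusted p 0.0520), Fcer1g at 2.47 ± 0.81 (0.106) and Tyrobp at 2.33 ± 0.70 (0.0811). Cd79b was at 1.96 ± 1.17, Csf1r at 0.098 ± 0.85, Ms4a1 at -0.11 ± 1.08 and Cd79a at -0.29 ± 1.07. With the animal as a replicate block 6 of the 10 passed, where 7.37% of all genes were called higher, and the added genes were Itgax (adjusted p 0.00742), Fcer1g (0.00732) and Tyrobp (0.0147). The median of the 10 was 2.40 against -0.19 over all genes, and the libraries did not overlap for 7 of the 10 (38.7% of all genes). The calls in control did not hold when any 1 of the 4 control libraries was left out, and calls over all genes fell too. With each library left out in turn, the median of the 10 ran from 1.74 to 2.85. Without either Sox4cKO CD44minus library more of the 10 passed, as did more of all genes, and without either Sox4cKO CD44plus library Igj did not pass. With upper quartile scaling Laptm5 alone passed, where 380 of 20427 genes were called higher. Igj also missed the threshold with RLE scaling, without scaling and with limma-voom (adjusted p 0.0987, 0.240 and 0.0603), and its adjusted p ran from 9.43e-06 to 0.240 over the alternatives that kept all libraries of the control. In a fit of the 4 control libraries alone 6 of the 10 passed, where 24.4% of all genes were called higher. No member passed the test of a difference between the genotypes in this contrast, as given above.

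The 10 genes were set beside the leukocyte gene Ptprc, which encodes CD45, a measure chosen after the values were seen. Ptprc was at 346 and 846 CPM in Sox4cKO CD44plus and 287 and 445 CPM in control CD44plus. As a percent of Ptprc reads, Laptm5 was at 41.2 and 45.3% in Sox4cKO CD44plus against 31.6 and 33.1% in control CD44plus. Itgax was at 33.5 and 44.2% in Sox4cKO CD44plus against 31.1 and 28.4% in control CD44plus, and Fcer1g was at 10.6 and 12.5% in Sox4cKO CD44plus against 5.79 and 9.35% in control CD44plus. Tyrobp was at 7.35 and 10.1% in Sox4cKO CD44plus against 6.04 and 7.34% in control CD44plus, where the nearest libraries, on 176 and 179 reads, differ by less than counting error. The nearest libraries of Fcer1g and Itgax differed by 1.32 and 1.38 counting SE of the log ratio, little more than that error, and those of Laptm5 by 3.97. In these 4 both Sox4cKO libraries were above both controls, which was so for 1.84% of all genes, while the other 6 overlapped. Genes lower on this scale were not counted. Ptprc itself had a genotype estimate of 0.70 ± 0.86 in CD44plus, so that share also depends on Ptprc. Igj was at 10.4 and 4.77% in Sox4cKO CD44plus and at 4.23 and 7.10% in control CD44plus. The highest CD44plus library was 1.39 to 2.45 times the lowest on this scale over the 10 genes, against 3.04 to 6.37 times in CPM.

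**Figure D4:**
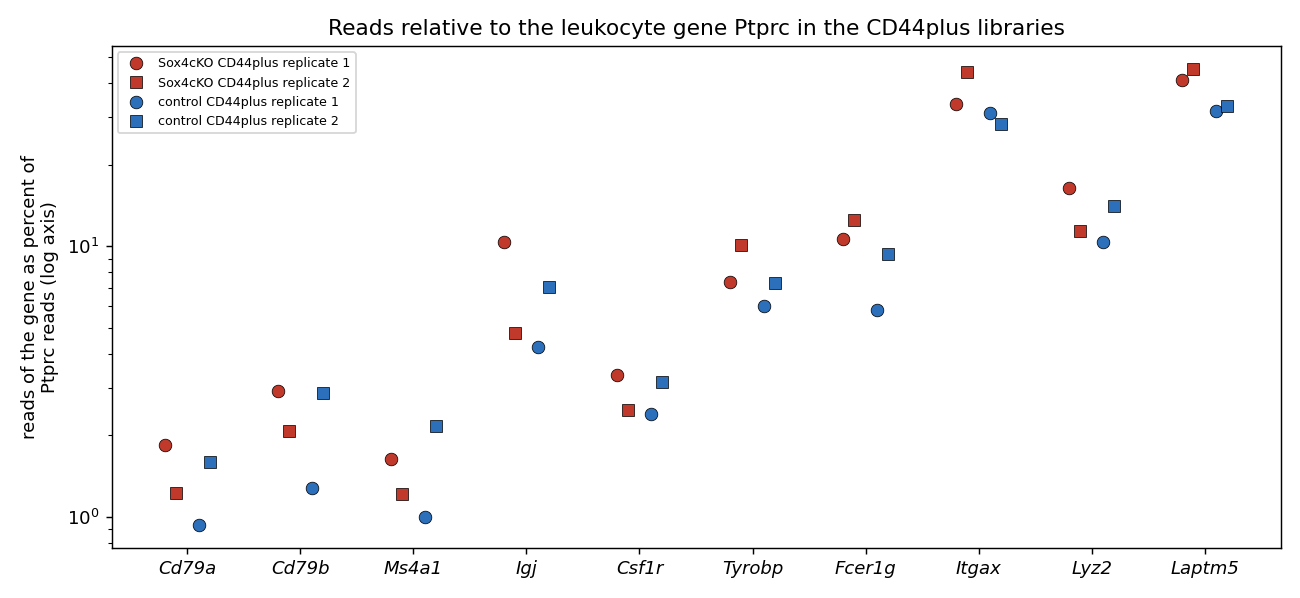
Reads of each gene as a percent of Ptprc reads (log y axis) in the 4 CD44plus libraries; circles are replicate 1 and squares replicate 2. Laptm5, Itgax, Fcer1g and Tyrobp are higher in both Sox4cKO libraries, and the other 6 genes overlap.

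Other genes of these cell types were read from lists of markers. Of 18 further B cell genes, Cd37 and Cd72 among them, 0 passed the test between the gates or between the genotypes. Cd72, a B cell surface receptor, was at 11.6 and 22.9 CPM in Sox4cKO CD44plus and 9.11 and 24.1 CPM in control CD44plus. The B cell list was positive in 17 of 18 genes for the genotype difference in CD44plus, with a median of 0.40, where 49.9% of all genes were positive. In CD44minus 3 of the 18 were positive and 15 negative, with a median of -0.55 against 0.19 over all genes. Of 9 plasma cell genes 0 passed. By the lower Poisson limit, 8 of the 9 had more reads than predicted stray reads in every CD44plus library, and Tnfrsf17 did not. In CD44minus that held for 7 and 7 in Sox4cKO and 6 and 7 in control. Sdc1, Cd38 and Ell2 had the highest mean CPM of the list. The sum of the 9 was 285 and 297 CPM in Sox4cKO CD44plus and 248 and 268.5 CPM in control CD44plus. In CD44minus it was 152.5 and 395 CPM in Sox4cKO and 150 and 171 CPM in control. For the genotype difference in CD44plus 7 of the 9 were positive and 2 negative, with a median of 0.19. In CD44minus 6 were positive and 3 negative, with a median of 0.52 against 0.19 over all genes. Tnfrsf17 encodes the receptor BCMA, which plasma cells depend on. It was at 0.145 and 0.0948 CPM in Sox4cKO CD44plus and 0.268 and 0.365 CPM in control CD44plus. Its genotype estimate in CD44plus was -1.26 ± 1.79. Mzb1, a plasma cell chaperone, was at 5.93 and 12.5 CPM in Sox4cKO CD44plus and 2.86 and 7.31 CPM in control CD44plus. The immunoglobulin chain genes were not analysed here.

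Of 19 macrophage and monocyte genes, 1 was higher in CD44plus of Sox4cKO and 0 of control. It was Sfpi1, which encodes the transcription factor PU.1, at 3.75 ± 0.86 in Sox4cKO (adjusted p 0.0271) and 1.56 ± 0.80 in control (adjusted p 0.239). The complement genes C1qa, C1qb and C1qc, made by tissue macrophages, were between 1.74 and 3.79 CPM in Sox4cKO CD44plus and between 0.804 and 2.56 CPM in control CD44plus. The list median between gates was -0.13 in Sox4cKO and -1.22 in control, against 3.16 and 2.40 for the 10 genes. Of 10 dendritic cell and 12 granulocyte genes 0 passed in either gate comparison. Among 22 partners and kinases of the ITAM adaptors, of which 20 were tested, Zap70 (a T cell kinase) was higher in CD44plus of Sox4cKO by 2.76 ± 0.65 (adjusted p 0.0305) and of control by 3.20 ± 0.70 (0.0256). Syk, the kinase that Tyrobp, Fcer1g and Cd79a engage, was at 1.55 ± 0.71 in Sox4cKO and 1.31 ± 0.72 in control and did not pass.

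Lists of genes of other leukocytes were read in the same comparisons. Of 15 genes of all leukocytes 13 were higher in CD44plus of Sox4cKO and 7 of control. Their summed level was 1545 and 4106 CPM in Sox4cKO CD44plus and 1260 and 1970.0 CPM in control CD44plus. Of 12 T cell genes 3 were higher in CD44plus of Sox4cKO and 4 of control, and their sum was 1915 and 4657 CPM in Sox4cKO CD44plus and 1807 and 2813 CPM in control CD44plus. Of 8 mast cell genes 6 were higher in CD44plus of Sox4cKO and 4 of control, with a sum of 3724 and 17880.0 CPM in Sox4cKO CD44plus and 1934 and 3201 CPM in control CD44plus. All 3 lists were highest in Sox4cKO CD44plus replicate 2, the library in which Tyrobp, Fcer1g, Itgax and Laptm5 stood apart. Of 7 epithelial genes, which include Epcam, 0 passed in any comparison. Their sum was 5976 and 5321 CPM in Sox4cKO CD44plus and 5707 and 5508 CPM in control CD44plus. In CD44minus it was less even, at 3289 and 18440 CPM in Sox4cKO and 3247 and 6870 CPM in control. The part of these cell types in the levels of the 10 genes was not tested.

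**Figure D5:**
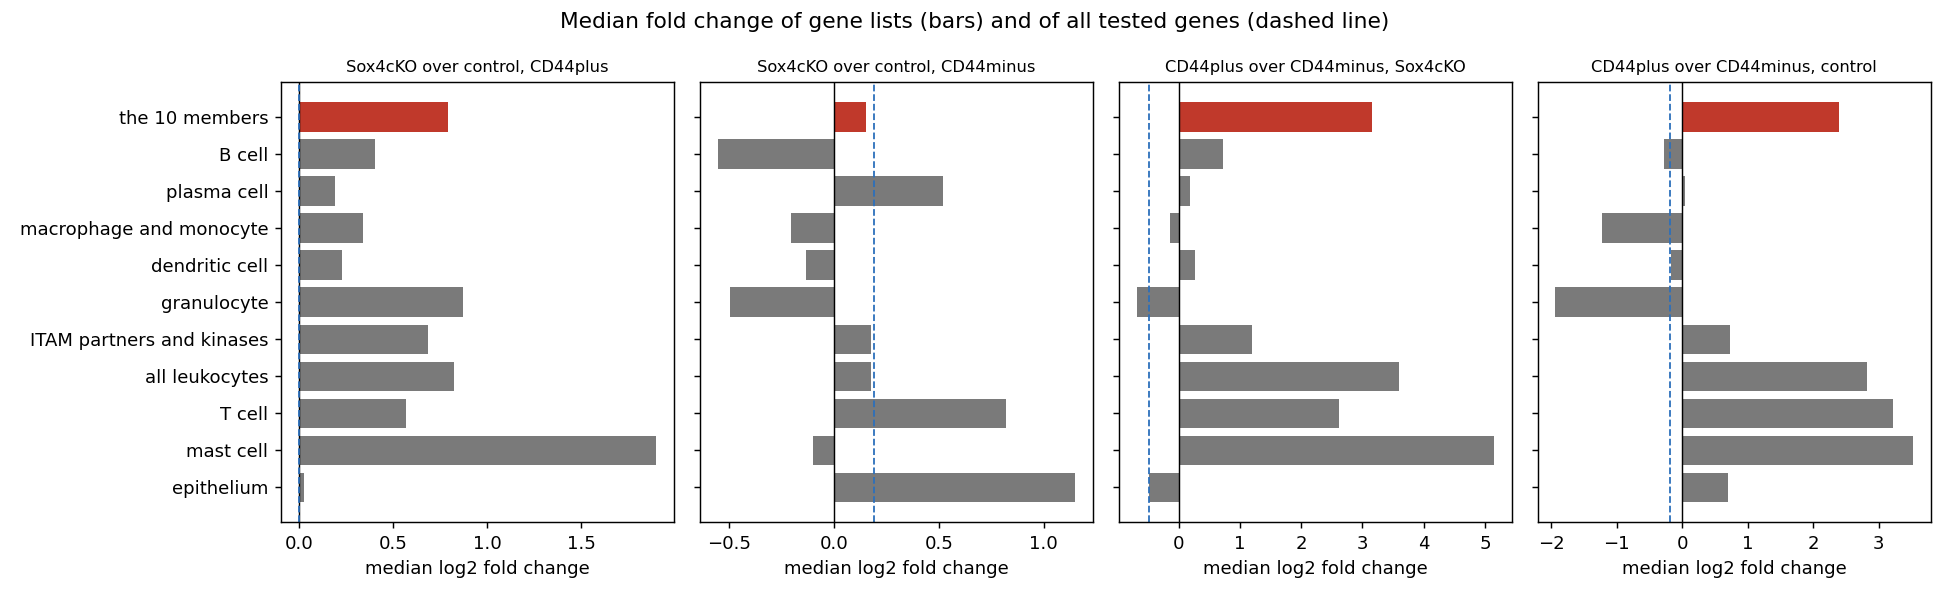
Median log2 fold change (x axis) of each list of genes (bars) in 4 comparisons, with the median of all tested genes as a dashed line. The 10 genes, all leukocytes, T cell and mast cell genes have the highest medians between the gates, at 2.40 to 5.15, while the B, plasma, macrophage, dendritic and granulocyte lists lie between -1.94 and 0.73.

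The genes with the most similar profile over the 8 libraries were ranked by the root mean square (RMS) difference of centred log2 CPM among 13920 genes. Nearest to Laptm5 were Msn at 0.18, Ptprc at 0.25 and Rac2 at 0.26, against a median of 1.78 over those genes. Fcer1g was nearest to Cd3g, Gimap3 and Ccl5 (0.42 to 0.46), and Itgax to Alox5ap, Gm2a and Sash3 (0.43 to 0.44). Tyrobp was nearest to Rgs2 at 0.16, Chsy1 and Batf, and Lyz2 to Hic1, Rgs2 and Hcst, the last an adaptor like Tyrobp. Igj had the least similar neighbours, Cd44 at 0.70, Prnp at 0.73 and Csf2rb at 0.77. Among the 10 genes, Cd79a and Ms4a1 were nearest to each other at 0.20, while the nearest of the 10 to Cd79b was Itgax at 0.89. Cd79b was itself nearest to Cybb, Ptgs2 and AI662270, and Cd79a to Ccr1, Ctse and Cass4. Csf1r was nearest to Gata3 at 0.093, and Ms4a1 to Evi2a at 0.22. Profiles share the depth and scaling of the same 8 libraries.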

How the data were processed

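The series holds 8 RNA-seq libraries of sorted mouse gut epithelium, 2 for each of 4 groups of genotype and gate. The authors deposited, for each library, a table of unnormalized read counts by gene symbol. Per the submitters' processing notes, HTSeq 0.6.1p1, STAR 2.2.5b, Trimmomatic 0.36 and bcl2fastq 2.17.4 were used with mm10; the settings, strand included, are not given in the sources used here. HTSeq's summary lines stayed out of library totals. The 10 genes and the marker lists were chosen with earlier results of these data known.

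Counts were fitted in R 4.3.3 with edgeR 4.0.16 (filterByExpr with a minimum count of 10, TMM, quasi-likelihood test), the 4 groups in all 8 libraries, with Benjamini-Hochberg adjustment over 20427 genes and a threshold of 0.05. There were 5 comparisons. Alternatives used limma 3.58.1, DESeq2 1.42.0, other scalings, no filter, no Rn45s, blocks and left-out libraries. The procedure was tested on simulated data. Intervals and the limit of 3 reads for a count of 0 cover counting error only, because reads carry no molecular identifiers. Exon lengths are from GENCODE on GRCm38. The strand-marking kit is per the labels' protocols.

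Both gates of a replicate number and genotype came from 1 animal, as the animal numbers that name the deposited tables show, so the gate comparisons are paired. Deviations from the group means correlated between gates across genes at 0.526 in Sox4cKO and 0.103 in control. Sox4cKO and control libraries share only the number. All 10 genes are named. Other lists are given by counts; genes named from them beyond the 3 of highest mean CPM were chosen after their values were seen. Some genes of the marker lists are not reported here.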

Additional observations from a re-analysis of the deposited data

Results flagged for a closer look

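Igj was picked out because its CPM in the libraries of both genotypes separated in opposite directions in the gates. Both Sox4cKO libraries were above both control libraries in CD44plus (35.9 and 40.4 against 12.2 and 31.6 CPM) and below both in CD44minus (0.990 and 0 against 2.02 and 2.36 CPM). The difference between the gates was 3.28 ± 1.37 on the log2 scale (SE of the edgeR fit, unadjusted p 0.0274, adjusted p 1.00), so it did not pass the test over all genes. In CD44minus it rests on 2 and 0 reads in Sox4cKO and 3 and 6 reads in control, which is 0.257 and 0 times the predicted stray reads in Sox4cKO and 0.582 and 1.18 times in control, so the direction in CD44minus was not resolved at this depth.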

How the results depend on the processing

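The count of genes that passed stayed at 0 between genotypes in both gates and for the gate difference under the alternatives besides leaving out a library. In CD44minus the call of Igj changed when Sox4cKO replicate 1 was left out, as did calls over all genes. Between gates in Sox4cKO it was 6 or 7 in the other alternatives, 0 in a fit of the 4 Sox4cKO libraries alone, and 1 to 8 when a library was left out. In control it was 3, where 2.01% of all genes were called higher, against 1 with upper quartile scaling (380 of 20427 genes). It was 6 without the filter (770 of 22694 genes), with the animal as a replicate block (7.37%) and in the 4 control libraries alone (24.4%). It also changed when a library was left out, as did the calls over all genes. The other alternatives had counts of 2 to 4, with 384 to 1416 genes called higher. Behind these counts Igj was lost with RLE scaling, without scaling and with limma-voom, and Itgax was gained with limma-voom, DESeq2 and without Rn45s. The scaling moved the median of all genes between gates to -0.93 in Sox4cKO and -1.01 in control with upper quartile factors, but the 10 genes stayed 3.65 and 2.62 above it. The replicate block changed no other call, and for the genotype comparisons, whose libraries share only a number, it called 0; deviations of same-numbered libraries correlated across genes at 0.275 in CD44plus and 0.6 in CD44minus.

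Directions turned for genes that did not pass. In Sox4cKO between gates Ms4a1 was -0.18 with RLE scaling, -0.65 without scaling, -0.67 with upper quartile, -0.19 with DESeq2 and -0.19 in 4 libraries. Cd79a was -0.40 without scaling and -0.42 with upper quartile, and Csf1r was -0.42 in both. In control between gates Csf1r was -0.27 with RLE, -0.60 without scaling, -0.78 with upper quartile, -0.28 with DESeq2 and -0.12 in 4 libraries. Between genotypes in CD44minus without scaling, Tyrobp was -0.25, Fcer1g -0.45, Cd79b 0.075 and Ms4a1 -0.022. With upper quartile there, Tyrobp was -0.19, Fcer1g -0.33, Cd79a -0.077 and Ms4a1 -0.090. With limma-voom Cd79a was -0.11 and Csf1r -0.44, without Rn45s Fcer1g was -0.026, Cd79a -0.043 and Ms4a1 -0.052, and in 4 libraries Tyrobp was -0.073, Cd79a -0.067 and Ms4a1 -0.077. The cause was not tested.

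Ranges when each library was left out in turn, for genes whose sign turned: in CD44plus between genotypes Ms4a1 -0.28 to 1.47. In CD44minus between genotypes they were Tyrobp -0.16 to 0.60, Fcer1g -1.45 to 1.66, Itgax -1.19 to 0.31, Cd79a -1.44 to 1.16, Cd79b -2.84 to 0.94, Ms4a1 -1.61 to 1.54 and Csf1r -1.69 to 1.11. Between gates in Sox4cKO they were Cd79a -0.30 to 1.93, Ms4a1 -0.57 to 1.86 and Csf1r -0.34 to 2.44. Between gates in control they were Cd79a -1.15 to 0.81, Ms4a1 -1.24 to 1.39 and Csf1r -0.50 to 0.72. For the gate difference they were Tyrobp -0.28 to 1.65, Fcer1g -0.36 to 2.76, Lyz2 -0.60 to 0.80, Cd79a -0.38 to 2.23, Cd79b -0.16 to 3.62, Ms4a1 -1.19 to 1.98, Laptm5 -0.42 to 1.19 and Csf1r -0.46 to 2.35. With 2 libraries a group and 107 to 225 reads on all 10 genes in a CD44minus library, small differences there could not be resolved.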
